A study of Drosophila melanogaster with 6 samples.

Results

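The Hippo pathway restrains tissue growth through a kinase cascade. In Drosophila, the kinase Hippo, with its scaffold Salvador, activates the kinase Warts, which works with its activator Mats and phosphorylates the co-activator Yorkie, keeping it out of the nucleus. Unrestrained Yorkie enters the nucleus and works through the DNA-binding protein Scalloped, and Expanded is both an upstream activator of the cascade and a known target of Yorkie. In the adult midgut, Yorkie is known for driving stem cell division after injury, from within the stem cells and through signals sent by neighbouring cells. Described here are the 7 core genes of this pathway, hpo, sav, wts, mats, yki, sd and ex. They were chosen by name, and all 7 had a row among the 8164 gene rows of the authors' deposited table.

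The RNA came from midgut cells of 3 batches of old flies, aged 59 to 65 days, and 3 batches of young flies, aged 6 to 8 days. All flies carried the same alleles in a yw background, esg-GAL4 (NP5130) with UAS-GFP and UAS-GFPnlacZ, and the label adds N 1099. The driver esg-GAL4 is active in intestinal stem cells and in their undifferentiated daughters, so GFP sorting enriches both, and the sorted cells are not stem cells alone. No label ties a library column of the table to an age, so values per library and their depth were not used. Each gene is therefore given by the authors' deposited comparison of the ages, which gives the log2 of the ratio between ages (here the log2 ratio), the mean abundance, the p-value and its adjustment over all rows by the Benjamini-Hochberg method (here FDR). Abundance is in CPM, the reads of a gene after every library is brought to a common total. The headers do not name the groups compared, and the comparison is read as one of ages because the samples are labelled old and young. The sources used here do not name the age in the numerator, so a log2 ratio has a sign but no age direction, and the table gives it no standard error. In pools of sorted cells, fewer cells of a type and less RNA per cell cannot be told apart.

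Rows of all 7 core genes held reads from the sorted cells, that of sd jointly with the gene CG8509, and none passed an FDR of 0.05 between old and young flies in the authors' deposited table. The count of 0 of 7 stands beside 7.10% of all rows called at that threshold in the authors' deposited table, made up of 5.17% with a positive and 1.94% with a negative sign. An unadjusted p (here raw p) under 0.05 was also reached by 0 of 7 genes, against 19.3% of all rows of the authors' deposited table. The FDRs of the core genes ran from 0.462 for ex to 0.915 for hpo in the authors' deposited table. The largest difference, that of ex, was 1.40-fold and the smallest, that of hpo, 1.08-fold in the authors' deposited table. A p above the threshold does not show that a gene had equal levels in old and young flies.

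Within the kinase cassette the differences were smallest. For hpo (FBgn0261456, dm3 chromosome 2R from 15381801 to 15384372, minus strand), which encodes the Ste20-family kinase at the top of the cassette, the authors' deposited table gave a log2 ratio of 0.11 at a mean level of 19.0 CPM, with an FDR of 0.915. It was the only positive sign among the core genes. The scaffold gene sav (FBgn0053193, 3R from 18884329 to 18886991, minus strand) had a log2 ratio of -0.14 and a mean level of 12.4 CPM in the authors' deposited table, with an FDR of 0.858. This row had the fewest reads of the 7.

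Downstream of Hippo, wts (FBgn0011739, 3R from 26615379 to 26632341, minus strand), which encodes the kinase that phosphorylates Yorkie, had a log2 ratio of -0.21 in the authors' deposited table. The row averaged 54.7 CPM with an FDR of 0.850 in the authors' deposited table. Its co-factor gene mats (FBgn0038965, 3R from 18246877 to 18248568, plus strand), which encodes the Mob-family activator of Warts, stood at -0.17 log2 ratio, 21.2 CPM and an FDR of 0.847 in the authors' deposited table. The 4 cassette genes thus lay between -0.21 and 0.11 on the log2 scale in the authors' deposited table, and 0 of 4 were called, against 7.10% of all rows.

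The nuclear effectors had somewhat larger negative values, also without a call. For yki (FBgn0034970, 2R from 19953498 to 19956008, minus strand), the co-activator on which the cassette acts, the log2 ratio was -0.29 at a mean level of 36.3 CPM, with an FDR of 0.706, in the authors' deposited table. Its DNA-binding partner sd (FBgn0003345, X from 15700276 to 15719755, plus strand) had -0.43 log2 ratio at 115.2 CPM, with an FDR of 0.594, in the authors' deposited table. The sd row is shared. It joins 9 transcripts of sd with 1 of CG8509, a gene on the same strand whose 1393 exonic bases do not overlap the 4619 of sd in the current annotation, and the reads of the row cannot be divided between them here.

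The apical regulator ex (FBgn0004583, 2L from 431253 to 448701, plus strand), which encodes a FERM-domain protein that recruits the cassette to the membrane, had the largest difference of the 7. Its log2 ratio was -0.48 at a mean level of 118.8 CPM, with a raw p of 0.146 and an FDR of 0.462, in the authors' deposited table. At its end the row overlaps crq (2L from 448254 to 453023, minus strand), which encodes a scavenger receptor of the CD36 family, over 448 bases or 2.57% of the ex span. The neighbour crq had a log2 ratio of -1.12 at 226 CPM, with an FDR of 0.0113, in the authors' deposited table. The library kit named in the labels does not mark strand, so reads from the shared bases cannot be assigned, and their part in the value of ex was not tested. No other core row overlapped the span of another row.

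**Figure D1:**
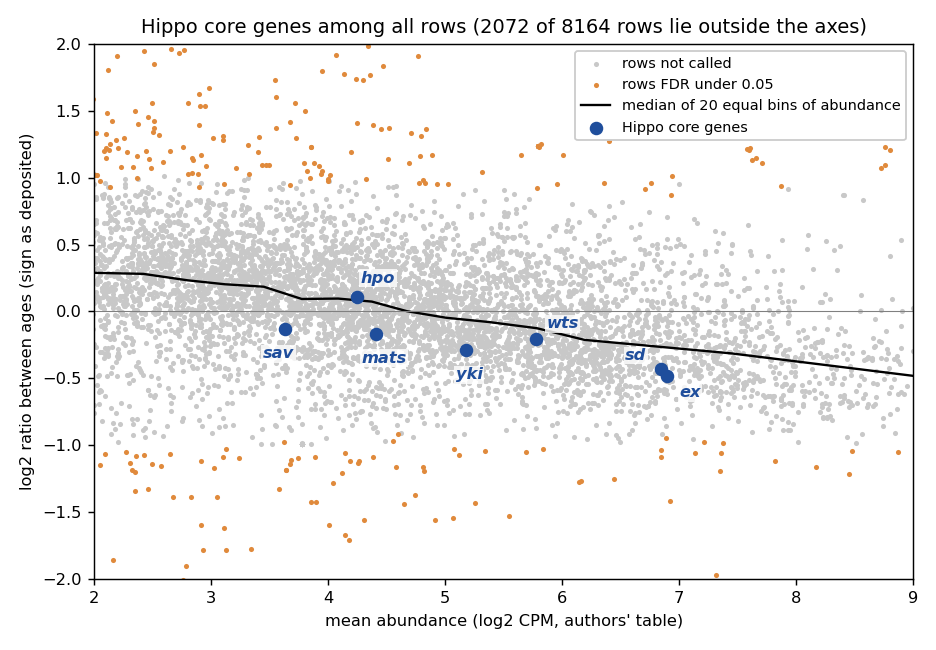
Log2 ratio between ages, with its sign as deposited, against mean abundance as log2 CPM for gene rows of the authors' deposited table (grey, not called; orange, FDR under 0.05), with the 7 core genes in blue and the median of 20 equal bins of abundance as a black line. All 7 core genes lie in the grey band, between -0.48 for ex and 0.11 for hpo, and all but hpo lie below the line; 2072 of 8164 rows fall outside the axes.

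Of the core genes, 6 had a negative sign and 1 a positive sign, with a median log2 ratio of -0.21, against a median of 0.05 and 46.2% negative signs over all rows of the authors' deposited table. The share of negative signs varied with abundance in the authors' deposited table. Rows within 0.5 log2 CPM of sav had a negative sign in 32.7% of cases in the authors' deposited table. Around ex, at the other end of the range, 75.6% of rows did so in the authors' deposited table. Relative to the median of rows of similar abundance, taken in 20 equal bins, the core genes ran from -0.32 for sav to 0.03 for hpo. On that scale ex stood at -0.23 and sd at -0.18, close to mats and yki, both at -0.24, and wts at -0.08. The order of the genes differed between the scales, with ex lowest as deposited and sav lowest relative to rows of similar abundance.

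The size of difference that the comparison called gives a scale for these values. Among rows within 0.5 log2 CPM of a core gene, the smallest called log2 ratio lay between 0.87 and 0.95 in absolute size across the 7 genes in the authors' deposited table. Between 2.34% and 4.40% of such rows were called in the authors' deposited table. The absolute value of ex was larger than that of 71.4% of rows within that distance in the authors' deposited table, and that of hpo larger than that of 24.5%. All 7 core values were smaller in size than any called row of the authors' deposited table at any abundance, the smallest of which was 0.87. This goes with the lack of a call for the core genes and is not a separate result.

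Levels of different genes can be compared only per length of transcript. Dividing the mean CPM of the authors' deposited table by the exonic length of each row's transcripts, taken from the current annotation, gave 23.8 CPM per kb for yki, the highest of the 7. The row of sd and CG8509 had 19.2 CPM per kb, ex 17.8 and mats 16.8 on this scale. Lower values were found for the other cassette genes, with 9.43 CPM per kb for wts, 7.60 for hpo and 5.53 for sav. Thus mats was 3.04 times and yki 4.30 times as high as sav per kb. Before division by length, ex and sd had the most reads and sav and hpo the fewest. These are means over old and young libraries together, with no error, so neighbours in the order cannot be separated.

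**Figure D2:**
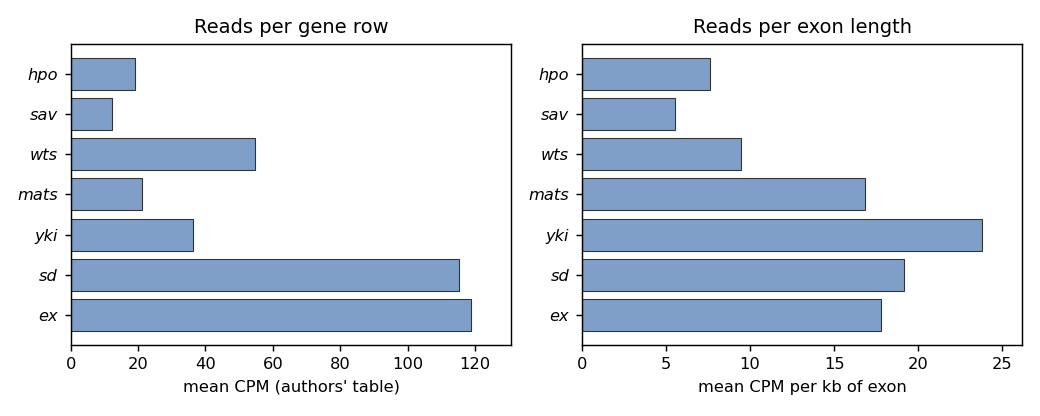
Mean abundance of the 7 core rows in CPM from the authors' deposited table (left) and the same divided by the exonic length in kb (right), with bars starting at 0 and no error, since values per library were not used. By reads ex and sd lead with 118.8 and 115.2 CPM, and per kb yki leads with 23.8; the bar of sd includes CG8509.

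The wider pathway was described with a list of 70 genes that includes the core, of which 59 were found in 60 rows of the authors' deposited table and 11 were not analysed here. Of the 60 rows, 3 were called in the authors' deposited table, or 5%, against the 7.10% of all rows. The share called varied with abundance there, with 19.7% below 1 log2 CPM, 4.28% at 3 to 4, 2.24% at 6 to 7 and 7.37% from 8 upwards. The 7.10% here and below is therefore not matched to the abundance of the listed rows. They were sdt with a positive sign, and Mad and dm with a negative sign. Of the 60 rows, 11 are shared with another gene, whose reads cannot be told apart here. A raw p under 0.05 was reached by 8 of the 60 rows in the authors' deposited table, or 13.3%, against 19.3% of all rows. The median log2 ratio was -0.26, with 52 negative and 8 positive signs, in the authors' deposited table, and 41 of the 60 rows lay below the median of rows of similar abundance.

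Among the 13 measured apical regulators, ex included, 1 was called, with a positive sign, in the authors' deposited table, or 7.69%, close to the 7.10% of all rows. The call was sdt (FBgn0261873, X from 8072582 to 8133487), which encodes Stardust, the scaffold that binds the membrane protein Crumbs. It had a log2 ratio of 1.11 with an FDR of 0.0260 in the authors' deposited table, and its level was only 2.14 CPM. Relative to the median of rows of similar abundance it stood at 0.75. Its partner crb, whose protein also binds Expanded, stood on the other side of zero at -0.75 and 88.3 CPM in the authors' deposited table, with a raw p of 0.0362 and an FDR of 0.217. The FERM-domain gene Mer had -0.52 and its partner kibra, listed as CG33967, -0.39 log2 ratio in the authors' deposited table, with FDR of 0.389 and 0.618. The adhesion gene ed, in a row shared with a small nucleolar RNA, and the Hippo kinase gene Tao, listed as Tao-1, had log2 ratios of -0.61 and -0.25 in the authors' deposited table, with FDR of 0.322 and 0.755.

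The branch of the large cadherins had 5 of 10 listed genes measured and 0 called, against 7.10% of all rows. All 5 had a negative sign in the authors' deposited table, and 4 lay below the median of rows of similar abundance. The receptor gene ft and its ligand gene ds had few reads, with means of only 1.45 and 1.71 CPM in the authors' deposited table. Their log2 ratios were -0.18 and -0.61 in the authors' deposited table, with FDR of 0.892 and 0.417. The palmitoyltransferase gene app, the casein kinase gene dco and the zyxin gene Zyx, listed as Zyx102EF, had log2 ratios of -0.58, -0.13 and -0.40, and FDRs from 0.398 to 0.925, in the authors' deposited table. Of the 4 genes of cell polarity, which set up the apical and basal sides of epithelial cells, 0 were called, against 7.10% of all rows. In the authors' deposited table l(2)gl had -0.56, the row of scrib and CG31082 -0.18, dlg1 -0.25 and the row of aPKC and CG30475 -0.35, with FDR from 0.425 to 0.867. Relative to the median of their bins of abundance, these rows stood at -0.06, 0.14, -0.04 and -0.10 in the same order.

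Inhibitors of the cassette filled 12 rows, of which 0 were called, against 7.10% of all rows, with a median log2 ratio of -0.18 in the authors' deposited table. Relative to the median of rows of similar abundance, their median was -0.004, and 6 of the 12 rows lay below. The Warts-binding gene jub, listed as CG11063, had -0.12 and Rassf, whose product competes with Salvador for Hippo, 0.06 log2 ratio in the authors' deposited table. Subunits of the STRIPAK complex, a phosphatase assembly that removes activating phosphate from Hippo, had negative signs and no call. In the authors' deposited table Cka had -0.16, Strip, listed as CG11526, -0.26, Mob4 -0.08 and Slmap, listed as CG17494, -0.10. Relative to the median of rows of similar abundance, Cka stood at -0.08, Strip at 0.05, Mob4 at 0.001 and Slmap at 0.02. The 6 named inhibitors had FDR from 0.750 to 0.946 in the authors' deposited table. Sik3 is named, after its values were seen, because RefSeq joins under it CG15072 and CG18604, which the table keeps apart. The row of CG15072 with CG15071 had a log2 ratio of -0.99 with an FDR of 0.0766, and that of CG18604 -0.55 with an FDR of 0.364, in the authors' deposited table.

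Kinases that act on Warts in parallel to Hippo, hppy and msn, had log2 ratios of -0.59 and -0.88 in the authors' deposited table. Their FDRs were 0.341 and 0.0854 in the authors' deposited table, so 0 of 2 were called, against 7.10% of all rows. The row of msn had a mean of 599.7 CPM in the authors' deposited table, in the highest of the 20 bins of abundance. Relative to the median of that bin its log2 ratio was -0.38, and hppy stood at -0.33 relative to the median of its own bin.

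Among 9 measured partners of Yorkie and Scalloped, Mad was called and 8 were not in the authors' deposited table, a share of 11.1% against 7.10% of all rows. Mad (FBgn0011648, 2L from 3146484 to 3159630), the transcription factor of the BMP pathway that also binds Yorkie, had a log2 ratio of -1.05 at 356 CPM, with an FDR of 0.0211, in the authors' deposited table. Relative to the median of rows of similar abundance its log2 ratio was smaller, at -0.54, and this centred value has no test. The co-repressor gene Tgi, listed as CG10741, had -0.40, the co-activator gene Wbp2, listed as CG11009, -0.59 and mop -0.60 in the authors' deposited table, with FDR from 0.300 to 0.538. The genes 14-3-3zeta and 14-3-3epsilon, whose products hold phosphorylated Yorkie in the cytoplasm, had values near zero as deposited. Their log2 ratios were -0.05 at 758 CPM and 0.01 at 424 CPM in the authors' deposited table, with FDR of 0.969 and 0.980. Rows of similar abundance had a median of -0.50, so on the centred scale these genes stood at 0.45 and 0.51. The zinc-finger gene tsh had 0.48 at only 1.91 CPM, with an FDR of 0.443, in the authors' deposited table.

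Of 9 measured genes known as Yorkie targets in fly tissues, 1 was called negative and 8 were not called in the authors' deposited table, again 11.1% against 7.10% of all rows. The call was dm (FBgn0262656, X from 3267216 to 3280049), which encodes the growth regulator Myc, at a log2 ratio of -1.09 and 115.2 CPM with an FDR of 0.0341 in the authors' deposited table. Relative to rows of similar abundance dm stood at -0.83. Its call ended when only rows with a mean of at least 5 CPM were adjusted together, with an FDR of 0.0565. The apoptosis inhibitor gene th, also known as Diap1, had -0.40 at 251 CPM with an FDR of 0.604 in the authors' deposited table. CycE, the cyclin gene of S phase entry, had the opposite sign, 0.82 at 7.51 CPM, with a raw p of 0.0216 and an FDR of 0.158 in the authors' deposited table. The glypican genes dally, in a row shared with CG32026, and dlp stood at -0.14 (FDR 0.940) and -0.59 (FDR 0.335) in the authors' deposited table. For the JAK-STAT ligand gene upd2 the log2 ratio was -0.80 at 8.60 CPM with an FDR of 0.134 in the authors' deposited table. The other 3 targets had log2 ratios from -0.71 to -0.08 in the authors' deposited table. Signs among the 9 targets were 8 negative and 1 positive, against 46.2% negative signs over all rows of the authors' deposited table. That share varied with abundance, from 27.8% of rows at 1 to 3 log2 CPM to 78.9% at 7 to 8 log2 CPM, and 7 of the 9 targets lay below the median of rows of similar abundance.

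**Figure D3:**
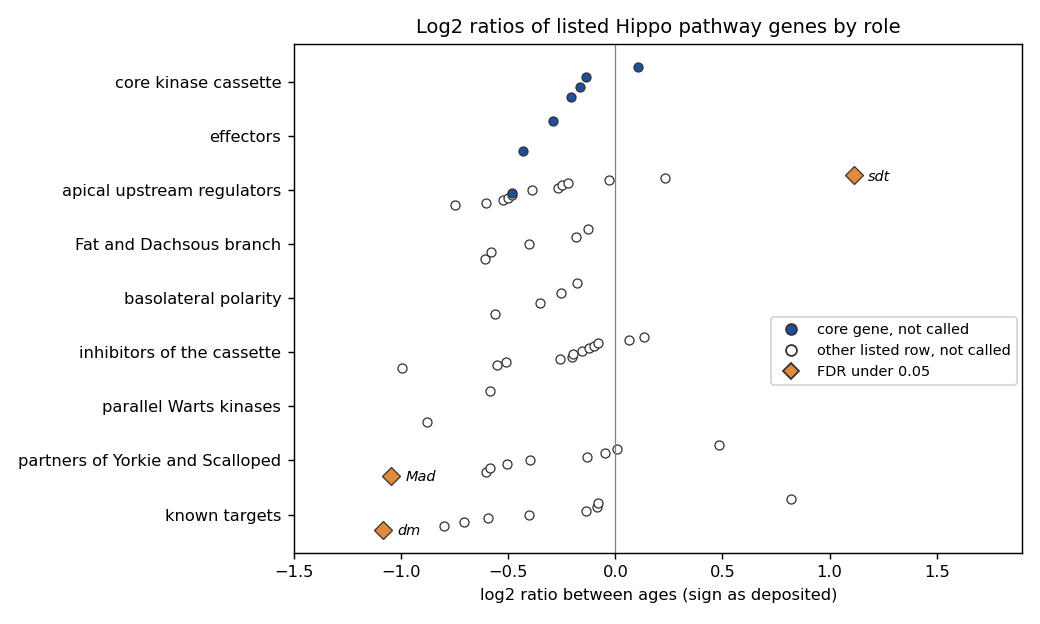
Log2 ratio between ages, with its sign as deposited, of the 60 rows of the listed Hippo pathway genes, arranged by role (blue circles, core genes; white circles, other listed rows; orange diamonds, FDR under 0.05 in the authors' deposited table). The called rows sdt at 1.11, Mad at -1.05 and dm at -1.09 lie at the outer ends, and the core genes lie between -0.48 and 0.11.

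Listed markers of several cell types also had reads from the sorted cells. The marker counts below stand beside 5.17% of all rows called positive and 1.94% called negative in the authors' deposited table. All 9 listed progenitor markers were measured, with esg at a mean level of 835 CPM and Dl at 26.5 CPM in the authors' deposited table, and 1 of the 9 was called, with a positive sign. Of 9 measured enteroendocrine markers 6 were called positive in the authors' deposited table, and pros was not called, at 0.70 with an FDR of 0.191. Of 9 measured enterocyte markers 3 were called positive and 1 negative in the authors' deposited table, while nub and Myo31DF, at 3.53 and 495 CPM, were not called. Of 8 listed visceral muscle markers 6 were measured in the authors' deposited table, with 3 called positive. Of 6 listed haemocyte markers 3 were measured there, with 2 called positive and 1, crq, called negative. Only 1 of 5 listed fat body markers was measured there, at 2.53 CPM, and it was called negative. For the Malpighian tubule 1 of 3 listed markers was measured there, and it was not called. The muscle gene sls, among those called and named after its values were seen, had 14122 CPM in the authors' deposited table, whereas the other 5 muscle markers had at most 32.7 CPM. Whether cells of each of these types were present, and their part in the values of the Hippo genes, was not tested.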

How the data were processed

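RNA of sorted midgut cells was sequenced in 6 libraries. Per the labels' protocols, libraries came from the TruSeq RNA kit, second version, and the build dm3 and the tools TopHat 1.2.0, Bowtie, FastQC and edgeR are named, without their roles, per the submitters' processing notes. Per the file headers, the authors' table holds log2 fold changes, mean log2 CPM values, p-values and their adjusted values (FDR). The headers do not name the groups compared, and the comparison was read as one of ages from the sample labels. Recomputing the adjustment (Benjamini-Hochberg) over 8164 rows gave the deposited values to within 2.28e-15. The table's 12 library columns carry codes in sets a and b of 3 libraries, as raw and CPM values. The codes match no label, and the columns were not used, so depth and intervals are not given. The other deposited table was not used. The replicate batches are separate batches of midguts.

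Core genes were matched by symbol. The wider list, with gene identifiers corrected through RefSeq after the table was seen, was matched by symbol and synonym, and both were chosen with earlier results of these data known. Named genes are the core, every called listed gene and, per role, up to 6 measured genes in list order. The genes Sik3, sls and sna were added after their values were seen. Exonic lengths and identifiers come from Ensembl release 115 through transcript identifiers (94.6% of rows matched). Coordinates are dm3 and 1-based; the table's starts were read as counted from 0. Mean CPM is 2 raised to the deposited value. No test was added. The adjustments were tested on simulated p-values. Alternatives were other thresholds, abundance minimums, adjustments and centrings. Python 3.11.15, numpy 2.4.6, pandas 2.3.3 and matplotlib 3.10.9 were used.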

Additional observations from a re-analysis of the deposited data

How the results depend on the processing

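No core gene was called under any of the 7 alternatives of threshold, abundance minimum, adjustment or rows tested. The smallest core adjusted p lay between 0.468 and 0.553 where p-values were adjusted again over fewer rows, with 5 core genes tested at a minimum of 20 CPM and 6 among single-gene rows. All 7 core signs held when the median over all rows or over rows of similar abundance was subtracted. Centring on the highest of the 20 bins of abundance, in which both fell, moved Mad to -0.54 and msn to -0.38. The 3 calls of the wider list moved more, and so did the calls over all rows, 580 as deposited. At an adjusted p under 0.01, and under the Benjamini-Yekutieli and Holm adjustments, 0 listed rows were called, beside 376, 337 and 182 of all rows. At an adjusted p under 0.1 there were 5, with msn and the row of CG15072 added, beside 887 of all rows. At a minimum of 5 CPM and of 20 CPM, 1 listed row was called each time, beside 228 and 90 of the rows tested. It was Mad, with adjusted p of 0.0342 and 0.0462. The row of sdt falls below both minimums, and dm had 0.0565 and 0.0750. Among single-gene rows sdt, Mad and dm were all called, beside 541 of the rows tested. The raw p of dm, 0.00217 in the authors' deposited table, was the same at both minimums. At these minimums the adjusted p of dm moved only with the set of rows adjusted together. Over all rows it also moved with the method, to 0.327 under the Benjamini-Yekutieli adjustment. No paired analysis was possible because no library column could be tied to a sample or replicate number, and a fit between the column sets a and b, without ages, was left out; the planned count fits were not run: edgeR with and without the block, DESeq2, no filter on low counts, and leaving out each library.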
